A study of Oryza sativa with 16 samples.

Results

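The genes described here are the type 2C protein phosphatases (PP2C) of rice, taken as every gene whose symbol or synonym in the array annotation was PP2C followed by a number. The annotation and its gene identifiers named 60 such genes, and 55 of them had a probe set on the array. Each gene was represented by 1 probe set, the one with the highest mean over the 16 arrays, out of 72 probe sets for the family and 57194 probe sets tested in all. PP2C41, PP2C49, PP2C50, PP2C65 and PP2C77 had no probe set and were not analysed here.

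PP2C enzymes are metal-dependent phosphatases that take phosphate off serine and threonine residues, and plants carry a large family of them. Those of clade A sit at the entry of signalling by abscisic acid (ABA), the hormone of water shortage. Without ABA they keep the SnRK2 kinases switched off. With ABA, the PYL/RCAR receptors bind and block these phosphatases, the SnRK2 kinases are freed and phosphorylate bZIP transcription factors, and ABA-responsive genes such as dehydrins and LEA genes are transcribed. Clade A genes are themselves among the transcripts that ABA raises in Arabidopsis and rice, which gives a negative feedback. The 7 clade A members measured here were PP2C06 (also ABIL1), PP2C08, PP2C09, PP2C30, PP2C51, PP2C53 (also ABIL2) and PP2C68 (also OsPP108). Their placing in the clade is textbook knowledge and was not checked against protein sequence here.

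RNA of hydroponically grown young rice seedlings was measured on Affymetrix rice genome arrays in 8 groups of 2 arrays, lettered A and B. The labels give the tissue as leaf, while the publication speaks of leaf, shoot and whole plants in different places, so the tissue is uncertain. Salt-sensitive VSR156 and salt-tolerant CSR11 were compared with and without NaCl, and drought-sensitive IR64 and drought-tolerant Vandana were compared with and without water withdrawal, all as untransformed varieties. The labels give 50 mM NaCl, and for drought 24 h out of the medium, whereas the published methods give a higher salt dose and a shorter drought, so dose and time are uncertain as well. The variety names come from those methods, which also state that tissue was pooled in equal amounts. Nothing states that A and B were separate plants, so the p-values measure the spread between these arrays, which may be technical. Each stress was applied at 1 dose and 1 time, and each class of tolerance was represented by 1 variety.

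The arrays were not of equal quality. The log2 ratio of the 3′ over the 5′ probe set of GAPDH, which grows with RNA breakdown, lay between -0.00 and 1.34 in the drought experiment, between 2.05 and 4.88 in the salt controls, at 7.68 and 8.16 in the VSR156 salt arrays and at 3.32 and 6.35 in the CSR11 salt arrays A and B. The deposited intensity was lowest on CSR11 salt array B (mean 9.16, with none of the 55 PP2C probe sets over 100) and on the VSR156 salt arrays (means 36.2 and 22.9). The arrays of a group correlated at 0.929 to 0.993 over all probe sets, with the CSR11 salt arrays at 0.929. The 6 leaf marker genes were bright on all 16 arrays (summed normalized intensity 11295 to 18361), but 2 of them fell in VSR156, 3 in CSR11, 2 in IR64 and 2 in Vandana under stress and none rose, the largest fall being that of GLO1, a glycolate oxidase, in Vandana (log2 change -3.01). The 3 root marker genes (LSI1, LSI2 and NRAMP5) summed to 78.2 to 197 in the drought experiment, 198 and 199 in VSR156 control, 1083 and 1171 in VSR156 salt, 2395 and 2114 in CSR11 control and 912 and 1097 in CSR11 salt. The part of RNA breakdown, dim arrays and root RNA in the salt results, and of the fall of leaf markers in any stress result, was not tested.

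The 2 drought groups were less apart than their controls. The IR64 and Vandana control groups differed at 4.75% of all probe sets, but the arrays labelled IR64 drought and Vandana drought at 0.572%. Some PP2C probe sets that separated the control varieties had the opposite order, or none, under drought, as given for PP2C12, PP2C47 and PP2C45 below. Drought changes are therefore also given with the controls exchanged, that is IR64 drought against Vandana control and Vandana drought against IR64 control. All values below are quantile-normalized intensities. A gene is said to have risen or fallen where limma, fitted to all 57194 probe sets, gave an adjusted p under 0.05 and a log2 change of at least 1 in size on the log2(intensity + 16) scale, which understates changes of dim probe sets.

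Across the 4 comparisons of stress with control, 29 of the 55 genes changed at least once and 26 did not. PP2C30 was the 1 gene that rose in all 4, while PP2C08, PP2C34 and PP2C59 rose in 3. The PP2C30 calls in CSR11 and IR64 were lost in some other fits, given below. No gene fell in 3 or more comparisons. In all, 15 genes were called only upwards and 11 only downwards, and PP2C12, PP2C16 and PP2C47 were called in both directions. In such tissue samples, a higher level in the same cells and more of the cells that hold a transcript cannot be told apart.

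**Figure D1:**
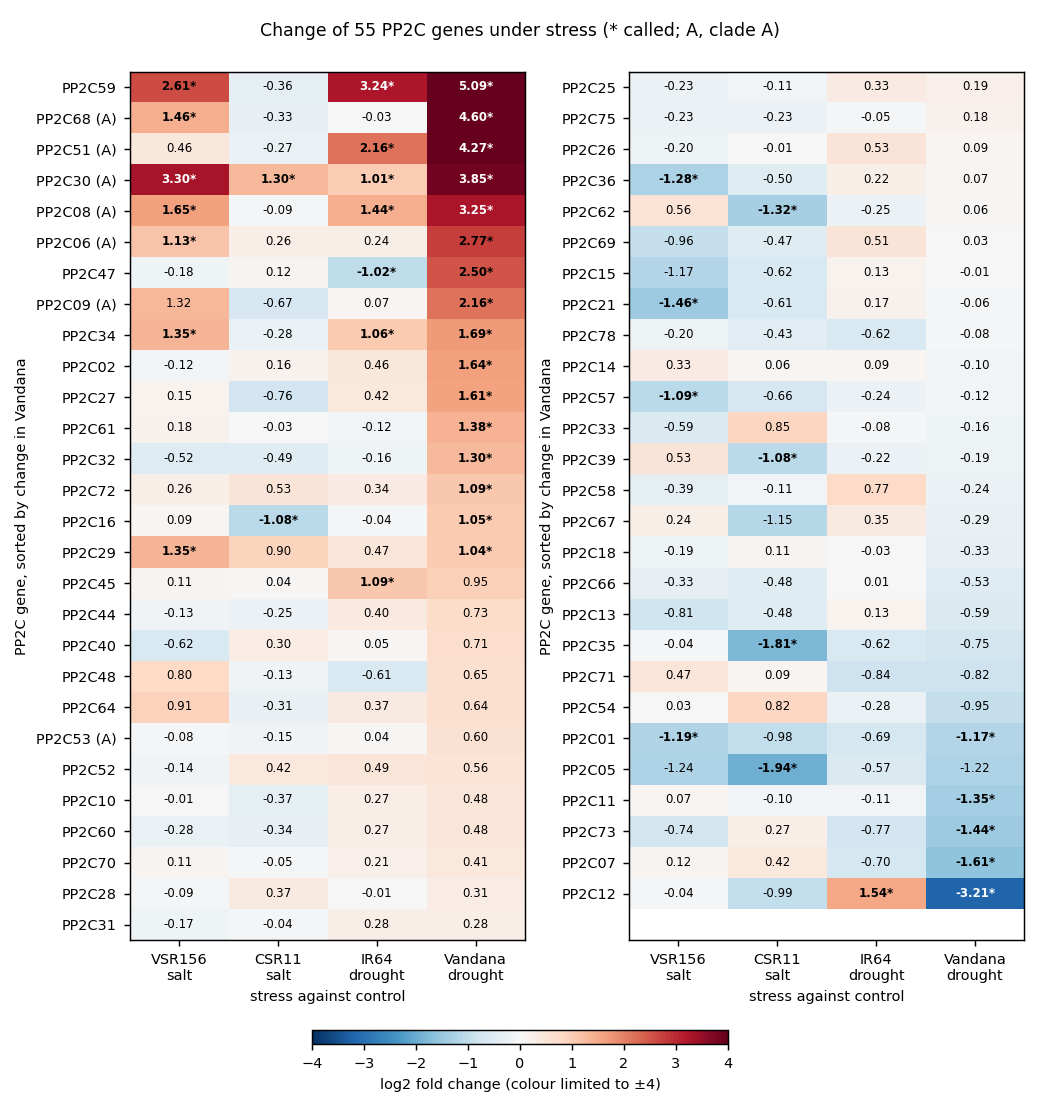
Log2 fold change of each of the 55 PP2C genes (rows) in the 4 comparisons of stress with control (columns), with 2 arrays in each group; red is higher and blue lower under stress, and an asterisk marks a called change. PP2C30 is marked in all 4 columns, and 16 genes are marked as raised in Vandana against 1 in CSR11.

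In VSR156 under salt, 7 PP2C genes rose and 4 fell, or 20.0% of the 55, against 7.75% of all probe sets (3.33% up and 4.42% down). Of the probe sets above the median brightness, where 53 of the 55 genes lie, 6.49% were called up and 8.68% down. The direction depended on scaling. With the values as deposited, none of the 55 rose and 25 fell, while the median of all probe sets shifted by -0.53 and that of the PP2C genes by -1.89. Of all 57194 probe sets, 13 then rose and 13015 fell, so falls were common across the array. With arrays centred on their median, 2 of the 55 rose and 9 fell, where 617 of all probe sets rose and 4236 fell. In CSR11 under salt, PP2C30 alone rose and 5 genes fell, or 10.9% against 6.33% of all probe sets (2.37% up and 3.97% down). Of the 28597 brighter probe sets, 1286 were called up and 2240 (7.83%) down in CSR11, so the counts of the 55 genes did not stand out. Without CSR11 salt array B none fell, and without array A 12 fell. The IR64 arrays labelled drought had 7 genes higher and 1 lower than control, 14.5% against 6.96% of all probe sets (3.01% up and 3.95% down). The Vandana arrays had 16 higher and 5 lower, 38.2% against 11.8% (5.25% up and 6.52% down). Among the brighter probe sets, 5.88% were called up and 7.79% down in IR64, and 10.3% up and 12.7% down in Vandana. The median log2 change over the 55 genes was -0.04, -0.23, 0.13 and 0.28 in VSR156, CSR11, IR64 and Vandana, where all probe sets had 0.02, 0.02, 0.00 and 0.01. When the controls were exchanged, the IR64 drought arrays had 14 genes higher and 4 lower than Vandana control (all probe sets 10.4%, with 4.70% up and 5.68% down), and the Vandana drought arrays 4 higher and none lower than IR64 control (all probe sets 6.28%, with 2.45% up and 3.83% down).

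The clade A genes made up a large share of the rises. Of the 7, 4 rose in VSR156, 1 in CSR11, 3 in IR64 and 6 in Vandana, and none fell in any comparison. Their median log2 change was 1.32, -0.15, 0.24 and 3.25 in that order. The other 48 genes had medians of -0.12, -0.24, 0.11 and 0.08, with 3, 0, 4 and 10 rising and 4, 5, 1 and 5 falling. In either direction, 14.6%, 10.4%, 10.4% and 31.2% of these 48 were called. The shares of brighter probe sets, up and down together, were no lower in VSR156, CSR11 and IR64, so these 48 did not stand out there. In Vandana 10.3% of brighter probe sets were called up and 12.7% down. The 10 rises were above that share, and the 5 falls were not. With deposited values, none of the clade A genes rose in VSR156. With exchanged controls 6 of the 7 were higher on the IR64 drought arrays (median 2.80) and 3 on the Vandana drought arrays (median 0.37).

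PP2C30, which in rice binds an ABA receptor and inhibits a SnRK2 kinase, rose in each variety. Its normalized intensity was 33.6 and 33.4 in VSR156 control and 457 and 489 under salt. In CSR11 it was 39.6 and 14.1 in control and 76.4 and 93.7 under salt. These groups did not overlap in either variety, but the controls of CSR11 differed more from each other than those of VSR156. IR64 went from 526 and 556 in control to 1113 and 1102 on the drought arrays, and Vandana from 60.0 and 96 to 1125 and 1539. Thus both drought groups ended in the same range from unequal controls. The log2 changes were 3.30 ± 0.27 (SE, adjusted p = 1.17e-05) in VSR156, 1.30 ± 0.27 (adjusted p = 0.00678) in CSR11, 1.01 ± 0.27 (adjusted p = 0.0248) in IR64 and 3.85 ± 0.27 (adjusted p = 9.44e-07) in Vandana. Each SE here and below pools the spread of a probe set over all 8 groups, so it does not follow the spread within 1 group. The CSR11 call was lost with array weights (adjusted p = 0.118) and with the 8 salt-experiment arrays alone (adjusted p = 0.0561). Centring arrays on their median lost both the CSR11 call (0.62, adjusted p = 0.326) and the IR64 call (1.04, adjusted p = 0.0740). Without CSR11 control B the CSR11 value was 0.86 and no longer called, and the IR64 call was lost without any 1 of its 4 arrays (adjusted p 0.101 to 0.133). Exchanging the controls gave 3.61 for IR64 and 1.26 for Vandana, both called.

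PP2C08 was dim in unstressed Vandana (11.1 and 10.4) and reached 234 and 244 on the Vandana drought arrays. In IR64 it went from 42.7 and 59.1 to 164 and 164, and in VSR156 from 25 and 29.2 to 124 and 114 under salt. CSR11 had 28.4 and 35 in control and 30.3 and 27.2 under salt, which overlap. PP2C08 rose by 3.25 ± 0.13 in Vandana (adjusted p = 1.80e-08), by 1.44 ± 0.13 in IR64 (adjusted p = 1.81e-05) and by 1.65 ± 0.13 in VSR156 (adjusted p = 1.09e-05) on the log2 scale, with -0.09 in CSR11. With exchanged controls the values were 1.94 for Vandana and 2.75 for IR64, both called. PP2C06, or ABIL1, stood at 119 and 125 in Vandana control and 976 and 874 under drought, but at 812 and 781 in IR64 control and 941 and 949 under drought. So the IR64 control arrays already held most of the level found under drought. PP2C06 rose by 2.77 ± 0.16 in Vandana (adjusted p = 2.17e-07) and was at 0.24 ± 0.16 in IR64 (adjusted p = 0.454). These turned round with exchanged controls, to 0.21 in Vandana (not called) and 2.80 in IR64 (called). Under salt it went from 164 and 156 to 392 and 346 in VSR156, a log2 change of 1.13 ± 0.16 (adjusted p = 5.27e-04), and from 167 and 189 to 176 and 264 in CSR11, where the groups overlapped.

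PP2C68, whose protein makes plants insensitive to ABA when overexpressed in Arabidopsis, had the largest clade A rise, in Vandana. Its intensity was 20.2 and 22 in Vandana control and 939.8 and 832 under drought, a log2 change of 4.60 ± 0.38 (adjusted p = 3.83e-06). In IR64 it was 655 and 709 in control and 647 and 686 under drought, so the groups overlapped at a high level. The Vandana call was lost against IR64 control (0.37, adjusted p = 0.707), and the IR64 drought arrays gave 4.20 against Vandana control. In the salt experiment it was low throughout: VSR156 moved from 8.68 and 9.45 to 53.8 and 52.6 (log2 change 1.46 ± 0.38, adjusted p = 0.0204), and CSR11 had 27.4 and 37 in control and 52.4 and 5.26 under salt. The VSR156 call was lost without any 1 of the 4 VSR156 arrays (adjusted p 0.0720 to 0.101).

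PP2C51, which in rice acts on seed germination, was dim in the salt experiment, where its normalized intensity never passed 15.7 on the 8 arrays. It stood at 9.35 and 4.01 in Vandana control and at 402 and 434 under drought, and at 63.2 and 60.8 in IR64 control and 347 and 318 under drought. The log2 change was 4.27 ± 0.15 in Vandana (adjusted p = 6.57e-09) and 2.16 ± 0.15 in IR64 (adjusted p = 2.05e-06). The second, dimmer probe set of PP2C51 gave 1.96 and 0.83, so the sizes differ between probe sets and the IR64 change then missed the log2 threshold of 1. On the brighter probe set, exchanged controls gave 2.47 for Vandana and 3.95 for IR64, both called. PP2C09 was at 184 and 145 in Vandana control and 815 and 761 under drought, and at 696 and 882 in IR64 control and 818 and 832 under drought. Its log2 change was 2.16 ± 0.46 in Vandana (adjusted p = 0.00489), with overlapping groups in IR64 (0.07 ± 0.46). Against the exchanged controls Vandana gave 0.01 and IR64 2.23, of which the IR64 value was called. In VSR156 it went from 33.3 and 36.4 to 79.7 and 152, a value of 1.32 ± 0.46 that did not pass (adjusted p = 0.0759). The 2 arrays of CSR11 salt gave 63.8 and 6.66 for this gene, a wide spread.

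PP2C53, or ABIL2, was the clade A gene with no call under any stress. Its intensities were 77.5 and 82.1 in VSR156 control, 92.3 and 60.0 under salt, 87 and 57 in CSR11 control and 69.8 and 55.5 under salt, with overlap in both varieties. In Vandana it was 132 and 105 in control and 198 and 176 under drought, which did not overlap, but the change of 0.60 ± 0.20 did not pass (adjusted p = 0.0592). IR64 gave 214 and 182 in control and 209 and 198 under drought.

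**Figure D2:**
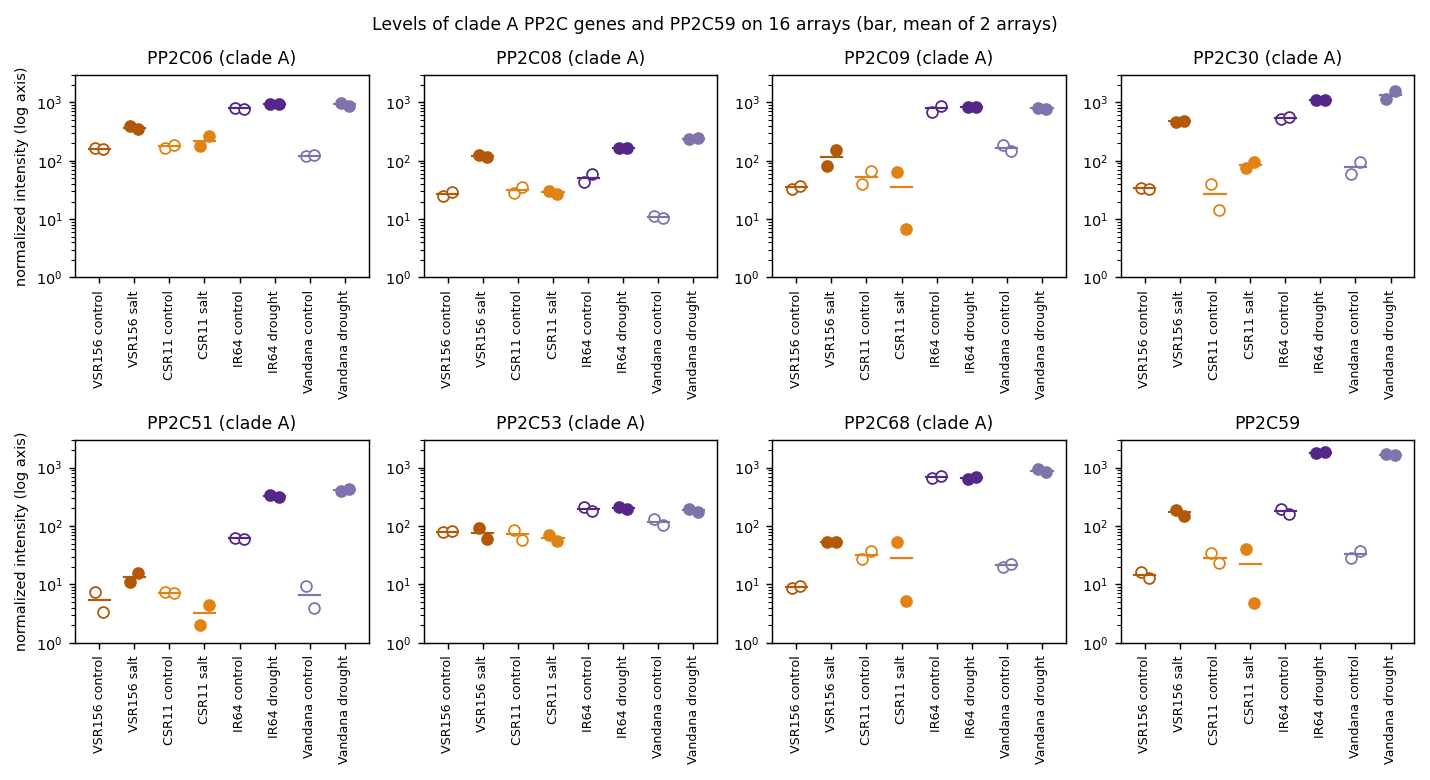
Normalized intensity (log axis) of the 7 clade A genes and PP2C59 on each of the 16 arrays; open points are control arrays, filled points stressed arrays, and bars the mean of the 2 arrays of a group. Except for PP2C53, the Vandana controls lie below the IR64 controls by a called margin, while the 2 drought groups differ by no called margin.

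The largest change in the family was outside clade A. PP2C59 stood at 28.8 and 38 in Vandana control and 1688 and 1632 under drought, and at 194 and 163 in IR64 control and 1782 and 1839 under drought. VSR156 went from 16.2 and 12.9 to 192 and 151 under salt. CSR11 had 34 and 23 in control and 40.6 and 4.82 under salt, so its groups overlapped. PP2C59 rose by 5.09 ± 0.35 in Vandana (adjusted p = 8.66e-07), 3.24 ± 0.35 in IR64 (adjusted p = 6.43e-05) and 2.61 ± 0.35 in VSR156 (adjusted p = 3.69e-04) on the log2 scale. The IR64 rise was the largest among the 55 probe sets in that variety. With exchanged controls PP2C59 stood at 5.21 for the IR64 and 3.11 for the Vandana drought arrays.

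PP2C34, also BIPP2C2 and named for its induction by a chemical activator of disease resistance, rose in VSR156 (1.35 ± 0.24), IR64 (1.06 ± 0.24) and Vandana (1.69 ± 0.24). Its intensities were 38.6 and 52.3 in VSR156 control against 149 and 132 under salt, 149 and 146 in IR64 control against 325 and 326 under drought, and 75 and 73.9 in Vandana control against 289.6 and 261. The groups were apart in each of the 3. The IR64 rise was lost without any 1 of the 4 IR64 arrays (adjusted p 0.0594 to 0.0647). With exchanged controls PP2C34 gave 1.92 in IR64 and 0.83 in Vandana, the second not called. PP2C29 was at 61.2 and 49.7 in VSR156 control and 158 and 173 under salt, and rose by 1.35 ± 0.21 (adjusted p = 9.74e-04). It also rose in Vandana, from 22.9 and 26.3 to 61 and 74.1 (1.04 ± 0.21, adjusted p = 0.00329), whereas CSR11 gave 0.90 ± 0.21, under the log2 threshold of 1. The Vandana rise of PP2C29 was not called against IR64 control (0.69). PP2C45 rose in IR64, from 376 and 463 to 847 and 978 (1.09 ± 0.24, adjusted p = 0.00817). In Vandana it went from 353 and 366 to 721 and 700.5, a value of 0.95 ± 0.24 just under the threshold. The IR64 value was under it as well without IR64 control A (0.95) or IR64 drought B (0.99), and was 1.30 against Vandana control.

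Beside PP2C09, 5 genes rose in Vandana and were called in no other comparison of stress with control. PP2C27, a phosphatase of cold signalling in rice, went from 54.9 and 47.7 to 182 and 197 (1.61 ± 0.15), and PP2C02 from 44.4 and 35.6 to 165 and 152 (1.64 ± 0.16). PP2C61 went from 11.9 and 12.1 to 61.6 and 52.4, PP2C32 from 55.6 and 40.9 to 146 and 135, and PP2C72 from 172 and 160.0 to 376 and 368, with log2 changes of 1.38, 1.30 and 1.09. PP2C72 was named after its values were seen. None of these calls held against IR64 control, where the Vandana drought arrays gave 0.65 for PP2C27, 0.93 for PP2C02, -0.23 for PP2C61, -0.03 for PP2C32 and 0.54 for PP2C72. The IR64 drought arrays against Vandana control were called for PP2C27 (1.38), PP2C02 (1.17), PP2C61 (1.49) and PP2C32 (1.17). PP2C16 was dim on all arrays (0.19 to 46.8), and its call of 1.05 in Vandana rests on values of 0.19 and 2.41 against 19.8 and 19.7 and was lost in 8 of the 16 fits that left out 1 array and against IR64 control (0.48).

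The genes that fell were mostly different ones in each variety. In VSR156 under salt these were PP2C21 (60.5 and 72.7 in control, 20.5 and 8.52 under salt), PP2C36 (119.5 and 91.1, then 31 and 36), PP2C01 (379.9 and 334, then 155 and 140.2) and PP2C57 (211 and 232, then 93.8 and 96.5), with log2 changes from -1.46 to -1.09. PP2C01 fell in Vandana too, from 251 and 408 to 154 and 115 (-1.17 ± 0.24), and was the 1 gene lowered in both, although its Vandana value was -0.84 without control B and -0.98 without drought B, under the threshold. The other falls in Vandana were PP2C12 (-3.21), PP2C07 (136 and 197 to 39.1 and 47.3, -1.61), PP2C73 (295 and 363 to 112 and 109, -1.44) and PP2C11 (169 and 178 to 70.4 and 48.1, -1.35). For PP2C73, 1 other probe set gave -1.65 but the remaining 2 gave -0.25 and 0.51, so its probe sets disagree. Against IR64 control none of the 5 Vandana falls was called, with -0.75 for PP2C01, -0.67 for PP2C12, -0.90 for PP2C07, -0.49 for PP2C73 and -0.47 for PP2C11.

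In CSR11 under salt the 5 falls rested on array B. PP2C35, also XB15, which acts on the rice immune receptor XA21, had 123 and 131 in control and 60.6 and 5.64 under salt. PP2C05 had 333 and 243 against 143 and 22.6, PP2C62 had 443 and 396 against 261 and 94, and PP2C16 had 29.5 and 46.8 against 23.3 and 0.37. In these the 2 salt arrays lie far apart, and array B is the lower. PP2C39 had 738 and 805 against 418 and 303, a narrower spread. The second probe set of PP2C62 gave -0.01 in CSR11, so its probe sets disagree. With array B left out, the log2 changes were -0.90 (PP2C35), -0.92 (PP2C05), -0.65 (PP2C62), -0.44 (PP2C16) and -0.86 (PP2C39), and none was called. The call for PP2C16 was lost in 15 of the 16 fits that left out 1 array.

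The 26 genes with no call in the 4 stress comparisons had log2 changes between -1.17 and 0.91. PP2C60, the member with the highest mean signal, had 471 to 739 over the 8 drought-experiment arrays and 379.8 to 685 over the 8 salt-experiment arrays. PP2C14, picked after its values were seen, had 419 to 482 and 485 to 666. PP2C18 and PP2C31 were the 2 genes below the median brightness, with no value over 8.01, so that a change in them could hardly have been measured. PP2C13, also DCW11, linked to cytoplasmic male sterility in rice, was lower in IR64 than in Vandana control (71.8 and 73.8 against 168 and 156, -1.0 ± 0.17).

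The partners of clade A in the ABA pathway were read from lists of fixed members. The receptor PYL5, the 1 receptor gene measured, fell by 1.28 ± 0.17 on the log2 scale in Vandana (adjusted p = 1.84e-04), from 320.2 and 309.9 to 121 and 119. It was called in no other comparison of stress with control as labelled. Unstressed IR64 was already lower than unstressed Vandana (-1.25, called), and the drought responses differed by 1.52 (IR64 minus Vandana, called). With exchanged controls it was at -0.03 in Vandana (not called) and -1.01 in IR64 (called). Of the 10 SnRK2 kinases, 2 rose in VSR156, 0 in CSR11, 1 in IR64 and 4 in Vandana, and none fell, where 3.33%, 2.37%, 3.01% and 5.25% of all probe sets rose. With exchanged controls 4 of the 10 rose in IR64 and 1 in Vandana. SAPK1 rose by 1.40 ± 0.21, 1.17 ± 0.21 and 2.35 ± 0.21 in VSR156, IR64 and Vandana. SAPK6 rose in VSR156 (1.06 ± 0.28) and Vandana (2.48 ± 0.28). The 3 transcription factor genes ABF2, TRAB1 and VP1 rose in Vandana as labelled (1.70, 1.59 and 1.24), and none of the 3 was called in the other varieties. Against IR64 control none of the 3 was called on the Vandana drought arrays (median 0.24), while ABF2 and TRAB1 were called on the IR64 drought arrays against Vandana control (1.73 and 1.56). Of the 3 genes of ABA synthesis and breakdown, ABA8OX2, an ABA hydroxylase, rose in VSR156 (1.62 ± 0.11) and Vandana (3.21 ± 0.11), ABA8OX1 rose in Vandana (2.29 ± 0.36), and ZEP, which acts early in synthesis, fell in CSR11 (-1.15 ± 0.18). The Vandana rises of the ABA hydroxylases were not called against IR64 control, at 0.03 for ABA8OX2 and 1.06 for ABA8OX1. The 9 ABA target genes, dehydrins and LEA genes among them, rose in number as 9, 2, 7 and 8 in VSR156, CSR11, IR64 and Vandana, against the same shares of all probe sets. With exchanged controls 8 rose in IR64 and 7 in Vandana. The controls were unequal for these 9 genes. In control, 6 were lower in VSR156 than in CSR11 (median -2.09), against 2.83% of all probe sets. Likewise 6 were higher in IR64 than in Vandana control (median 1.67), against 2.61%. Between the salt-stressed groups 3 were higher and 1 lower in VSR156 (median -0.00), against 2.67% and 2.06%. RAB16D, a dehydrin, rose in all 4 (3.41, 3.44, 3.48 and 6.36), as PP2C30 did.

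**Figure D3:**
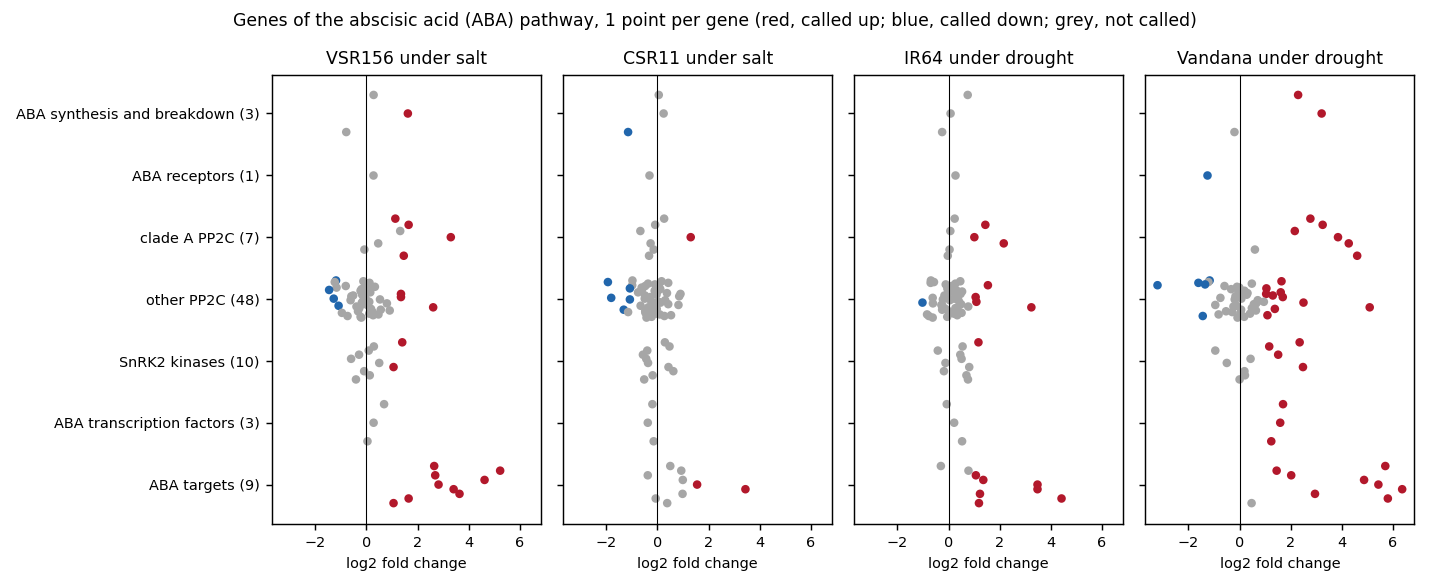
Log2 fold change, as labelled, of each gene of the ABA pathway (1 point per gene, the number of genes per list in brackets) in the 4 comparisons of stress with control; red points were called up, blue down and grey not called. The clade A genes and ABA targets lie to the right in VSR156 and Vandana, and the single receptor gene, PYL5, lies to the left in Vandana at -1.28.

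The salt responses of the 2 varieties were compared directly as a difference of differences, called at an adjusted p under 0.05. Of the 55 genes, 9 responded more positively in VSR156 and 3 in CSR11, against 9.04% of all probe sets (4.39% more positive in VSR156 and 4.65% in CSR11). Among the brighter probe sets the shares were 8.01% and 8.61%. The 9 were PP2C59 (2.97 ± 0.49), PP2C30 (2.0 ± 0.37), PP2C62, PP2C08 (1.74 ± 0.18), PP2C34, PP2C39, PP2C48, PP2C27 and PP2C06. For PP2C62 and PP2C39 the difference came with a fall in CSR11 and no call in VSR156 (0.56 and 0.53), and the second probe set of PP2C62 gave a difference of 0.49, not called. PP2C33, PP2C73 and PP2C40 had the opposite sign, at -1.44, -1.01 and -0.93. The calls for PP2C06 and PP2C40 were lost in 11 and 14 of the 16 fits that left out 1 array. These counts depended on the fit. Neither deposited values nor centring on the array median gave any salt difference, and the 8 arrays of the salt experiment alone gave 1. Leaving out either VSR156 control array left 5 of the higher kind, leaving out CSR11 salt A gave 16, and leaving out CSR11 salt B gave 5 of the lower kind. No clade A gene differed between the unstressed VSR156 and CSR11 groups, where 3 PP2C genes were higher and 3 lower in VSR156 (4.94% of all probe sets, with 2.11% higher and 2.83% lower). Brighter probe sets had 4.01% higher and 5.48% lower, so these PP2C counts did not stand out. PP2C12 differed most of the PP2C genes, with 44.8 and 39.5 in VSR156 control against 599 and 819.9 in CSR11 control (-3.63 ± 0.23). It kept that order under salt, 31 and 51.5 against 357 and 331. PP2C47 was higher in VSR156 both in control (567 and 592 against 133 and 116) and under salt (519.8 and 499 against 144 and 128), but its dimmer second probe set gave 0.10 and -0.10, not called. That probe set read only 0.87 to 17.8 on the 8 salt-experiment arrays, so a difference in it could hardly have been measured. PP2C39 and PP2C16 were lower, and PP2C36 and PP2C33 higher, in unstressed VSR156. Between the 2 salt-stressed groups, 6 genes were higher in VSR156 and PP2C12 lower, against 4.72% of all probe sets (2.67% higher and 2.06% lower), and these 6 were PP2C59, PP2C30, PP2C47, PP2C08, PP2C09 and PP2C34. Here 5.15% of the brighter probe sets were higher and 3.91% lower.

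Between the drought responses, 3 genes were more positive in IR64 and 12 in Vandana, against 7.41% of all probe sets (3.76% more positive in IR64 and 3.65% in Vandana), and 5 of these 12 were clade A genes. Among the brighter probe sets the shares were 6.82% and 6.85%. PP2C68 differed by -4.63 ± 0.54, PP2C47 by -3.52 ± 0.33, PP2C30 by -2.84 ± 0.37 and PP2C06 by -2.53 ± 0.22 (IR64 minus Vandana). PP2C59 differed by -1.85 ± 0.49 (adjusted p = 0.0436), a call that was lost in 14 of the 16 fits that left out 1 array. That of PP2C32 (-1.45) was lost in 10. With deposited values 0 genes were more positive in IR64 and 2 in Vandana. These differences were taken with each variety's own control as labelled. PP2C12, PP2C11 and PP2C58 had the opposite sign, at 4.76, 1.24 and 1.01.

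The unstressed groups of the 2 varieties differed in PP2C levels as well. In control, 11 PP2C genes were higher in IR64 and 2 lower, against 4.75% of all probe sets (2.61% higher and 2.14% lower), and 6 of the 7 clade A genes were among the 11. Brighter probe sets had 5.14% higher and 4.11% lower. PP2C68 was higher by 4.23 ± 0.38 (adjusted p = 2.46e-05), PP2C30 by 2.59 ± 0.27, PP2C06 by 2.56 ± 0.16, PP2C09 by 2.16 ± 0.46, PP2C51 by 1.79 ± 0.15 and PP2C08 by 1.31 ± 0.13 on the log2 scale, while PP2C53 stood at 0.68 ± 0.20 (adjusted p = 0.0634). PP2C59 was higher by 1.98 ± 0.35. Under drought, 1 of the 55 genes, PP2C12, differed between the labelled varieties, against 0.572% of all probe sets (0.511% higher and 0.0612% lower in IR64), and 4 of the 55 had an unadjusted p under 0.05. Of the 16 genes raised in Vandana, 10 were already higher in IR64 control and none was called between the drought groups. The differences between the drought groups for those 16 lay between -0.52 and 0.23, and the widest 95% interval was -0.95 to 1.08, for PP2C09. For PP2C06 the interval was -0.32 to 0.38, and for PP2C30 -0.83 to 0.34. Those of PP2C08 (-0.79 to -0.21) and PP2C02 (-0.82 to -0.12) lay wholly on the negative side, lower in IR64, though neither was called. Over the 55 genes the mean levels of the 2 drought groups correlated at 0.973, and those of the 2 control groups at 0.697. Over all probe sets the same pairs correlated at 0.986 and 0.952, so the closeness of the drought groups was not particular to PP2C genes. These correlations are across genes or probe sets, which are not independent replicates. The control arrays are shared by the stress and control comparisons, so the response and the control difference of a gene are not independent of each other.

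**Figure D4:**
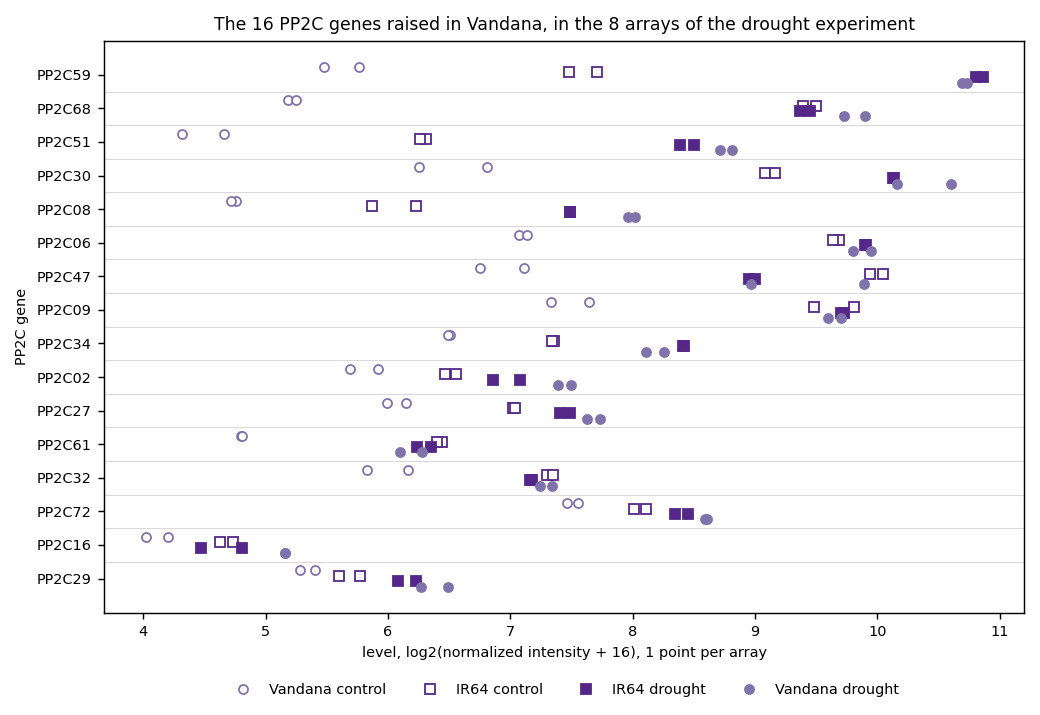
Level, as log2 of normalized intensity plus 16, of the 16 PP2C genes raised in Vandana under drought, with 1 point for each of the 8 arrays of the drought experiment; circles are Vandana, squares IR64, open points control and filled points drought. The Vandana controls lie at the left in every gene. For genes such as PP2C68, PP2C06, PP2C09, PP2C32 and PP2C61 the IR64 controls lie with the drought arrays, and for PP2C47 to their right.

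PP2C12, PP2C47 and a second probe set of PP2C45 did not keep the order of the IR64 and Vandana controls on the drought arrays. PP2C12 was at 44.7 and 32.2 in IR64 control and 298 and 299 in Vandana control. The arrays labelled drought had 151 and 133 for IR64 and 25.3 and 11.9 for Vandana, so the order of the varieties was turned round (-2.54 ± 0.23 in control, 2.22 ± 0.23 under drought). As labelled, PP2C12 rose by 1.54 in IR64 and fell by 3.21 on the log2 scale in Vandana. Set against Vandana control, the IR64 drought arrays gave -0.99, not called.

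PP2C47 was at 966 and 1045 in IR64 control and 122 and 91.3 in Vandana control (3.07 ± 0.24), and at 479 and 496 against 935 and 485 on the drought arrays, which overlap. As labelled it fell by 1.02 in IR64 and rose by 2.50 on the log2 scale in Vandana, and with exchanged controls the 2 values were 2.05 and -0.56. The fall in IR64 was lost without any 1 of the 4 IR64 arrays (adjusted p 0.0582 to 0.0898). The second probe set of PP2C47 gave -0.18 for IR64 and 1.63 for Vandana as labelled. The dimmer probe set of PP2C45 had 0.34 and 1.43 in IR64 control, 77.4 and 71.2 in Vandana control, 291 and 298 on the IR64 drought arrays and 10.7 and 1.37 on the Vandana drought arrays. As labelled it rose by 4.20 ± 0.25 in IR64 and fell by 2.07 ± 0.25 in Vandana, whereas the brighter probe set of the same gene gave 1.09 and 0.95. With exchanged controls this dimmer probe set gave 1.78 for the IR64 drought arrays, called, and 0.35 for the Vandana drought arrays, not called. In the salt experiment it rose by 2.05 ± 0.25 in VSR156 and gave 0.90 in CSR11, not called. Between those controls it gave -1.77 (VSR156 minus CSR11), called. Whether the drought arrays carry the variety named on them was not tested.

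**Figure D5:**
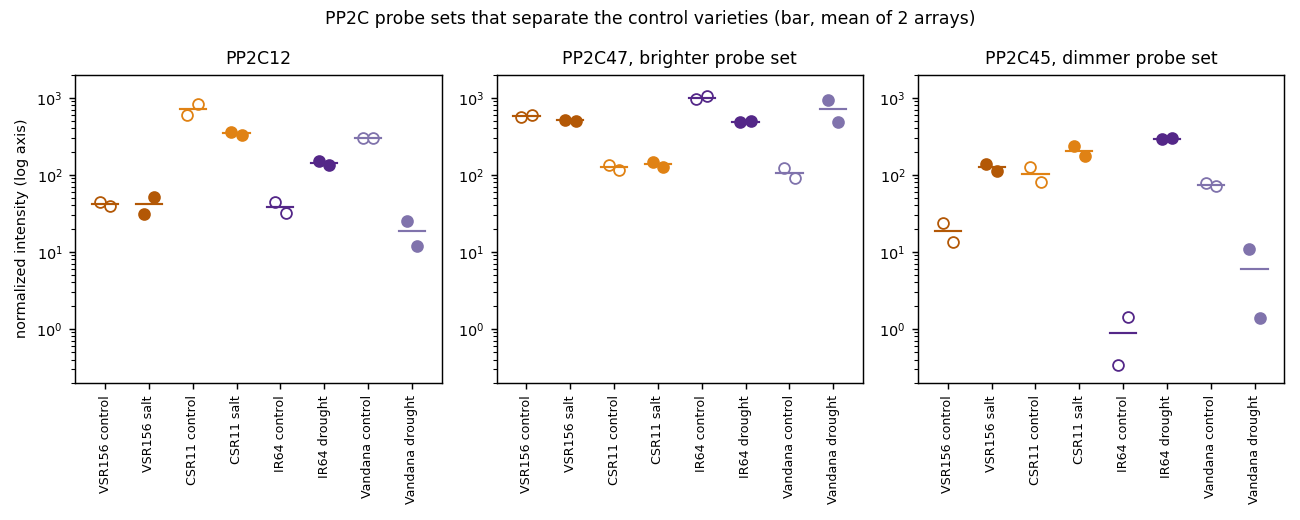
Normalized intensity (log axis) on each array for PP2C12, the brighter probe set of PP2C47 and the dimmer probe set of PP2C45; open points are control arrays, filled points stressed arrays, and bars the mean of the 2 arrays. For PP2C12 the order of VSR156 and CSR11 is the same in control and salt arrays, while the order of IR64 and Vandana turns from 44.7 and 32.2 against 298 and 299 in control to 151 and 133 against 25.3 and 11.9 under drought.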

How the data were processed

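Expression was measured on 16 Affymetrix rice arrays. The authors deposited 1 linear intensity per probe set and array, with no detection calls. The submitters' notes name GCOS 1.0, whereas the published methods name a later release, RMA and a filter on absent calls, which the values do not show. PP2C genes were found through the platform's probe-to-gene table (2 by symbol) and RefSeq synonyms of the same gene identifiers (the others). After leaving out 187 control probe sets of 57381, intensities were quantile-normalized and log2(intensity + 16) was fitted with limma 3.58.1 in R 4.3.3, with 8 group means (8 residual and 2.94 prior degrees of freedom) and Benjamini-Hochberg adjustment. On simulated data for VSR156 under salt, 68% of probe sets shifted by 1.5 and 99% of those shifted by 3 (log2) were called. The difference of the salt responses was called for 43% and 89% of them. Only probe sets above the median brightness were shifted, and each had the same spread on all 16 arrays. The rates therefore do not cover dim probe sets or arrays of unequal quality. Named were all clade A genes, genes called in 2 or more stress comparisons, the 5 largest rises and falls of each, those called between responses or controls, and the genes of highest and lowest mean. PP2C14, PP2C18 and PP2C72 fall outside this rule and were named after their values were seen. The members and lists were chosen with earlier results of these data known. Intensities on 2 arrays per group limit the precision. Other scalings, pseudocounts, array sets, probe set means, array weights, the methods' t-test and left-out arrays were tried. No sequences were used here.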

Additional observations from a re-analysis of the deposited data

Results flagged for a closer look

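The responses of the 2 varieties of an experiment differed, by the test of the difference itself, for 12 PP2C genes under salt and 15 under drought. Of all probe sets, 9.04% differed under salt and 7.41% under drought. Brighter probe sets differed more often, with 8.01% positive and 8.61% negative under salt and 6.82% and 6.85% under drought. Under salt the difference of VSR156 minus CSR11 on the log2 scale was 2.97 for PP2C59, 2.0 for PP2C30, 1.88 for PP2C62, 1.74 for PP2C08, 1.63 for PP2C34, 1.61 for PP2C39, 0.93 for PP2C48, 0.91 for PP2C27 and 0.87 for PP2C06. It was -0.93 for PP2C40, -1.01 for PP2C73 and -1.44 for PP2C33. Under drought the difference of IR64 minus Vandana was 4.76 for PP2C12, 1.24 for PP2C11 and 1.01 for PP2C58. It was -1.18 for PP2C02, -1.19 for PP2C27, -1.27 for PP2C48, -1.45 for PP2C32, -1.50 for PP2C61, -1.81 for PP2C08, -1.85 for PP2C59, -2.11 for PP2C51, -2.53 for PP2C06, -2.84 for PP2C30, -3.52 for PP2C47 and -4.63 for PP2C68. PP2C08, PP2C27, PP2C30, PP2C48, PP2C59 and PP2C06 were called in both experiments, with a positive sign under salt and a negative one under drought in the normalized values. With deposited values the salt differences of PP2C06 (-0.47), PP2C27 (-0.72) and PP2C48 (-0.63) changed sign, and centring on the array median left 0 salt differences. The salt call of PP2C06 was lost in 11 and the drought call of PP2C59 in 14 of the 16 fits that left out 1 array. Over the mean of its probe sets PP2C48 was called in neither experiment (0.55 and -0.50). The RNA quality ratio and the root markers moved with the salt groups. On the drought arrays PP2C12, PP2C47 and the dimmer PP2C45 probe set did not keep the order of the control varieties. Whether the drought arrays carry the variety named on them, and the part of any of this in these differences, was not tested.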

How the results depend on the processing

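The groups held 2 arrays each, and the salt arrays were dim and of unequal RNA quality. With values as deposited, 0 genes rose and 25 fell in VSR156, 0 and 0 changed in CSR11, 2 and 0 in IR64, and 5 and 1 in Vandana. Clade A rises were then 0, 0 and 1 in VSR156, CSR11 and IR64. The responses differed for 0 and 0 genes under salt and 0 (higher in IR64) and 2 (lower) under drought. The calls of all probe sets shifted from 1902 up and 2528 down to 13 and 13015 in VSR156, from 1353 and 2268 to 0 and 13 in CSR11, from 1722 and 2257 to 663 and 235 in IR64 and from 3005 and 3731 to 761 and 2315 in Vandana, and the median of all probe sets moved by -0.53, -0.16, 0.07 and -0.16. Reversed in sign then were PP2C06 (-1.27), PP2C08 (-0.48), PP2C29 (-0.95), PP2C34 (-0.87) and PP2C68 (-0.06) in VSR156 and the salt response differences of PP2C06 (-0.47), PP2C27 (-0.72) and PP2C48 (-0.63). With arrays centred on their median, 2 rose and 9 fell in VSR156 (clade A 1), 0 and 0 in CSR11 (clade A 0) and 4 and 0 in IR64, with 0 and 0 salt differences and 1 drought difference higher in IR64. Of all probe sets, 617 rose and 4236 fell in VSR156 when centred, 114 and 1778 in CSR11 and 1546 and 1885 in IR64. A pseudocount of 1 gave 2 up and 1 down in CSR11, 2 and 1 salt differences and 1 and 7 drought differences. A pseudocount of 64 gave 3 up and 0 down in VSR156 (clade A 2), 0 and 3 in CSR11 (clade A 0) and 4 and 0 in IR64 (clade A 1). With only the 8 arrays of an experiment, CSR11 had 0 up (clade A 0) and 1 down, salt differences were 1 and 0, and 7 drought differences were higher in IR64. With only the 4 arrays of the variety CSR11 had 0 and 0 (clade A 0). Array weights gave 0 up (clade A 0) and 3 down in CSR11, 5 and 0 salt differences and 7 drought differences higher in IR64. These weights were equal for the 2 arrays of each group (0.23 for both CSR11 salt arrays), so they could not set array B apart from A. The mean over probe sets of a gene left 0 falls in IR64. The methods' t-test gave 0 and 0 in CSR11 (clade A 0) and 1 fall in Vandana, and after Benjamini-Hochberg adjustment 0 in every comparison and direction, with 10, 0, 7 and 14 of the 55 at an unadjusted p under the threshold and the same fold limit. With the controls of IR64 and Vandana exchanged, the IR64 drought arrays had 14 up (clade A 6) and 4 down and the Vandana drought arrays 4 up (clade A 3) and 0 down, and PP2C12 (-0.99) and PP2C47 (2.05) in IR64 and PP2C32 (-0.03), PP2C47 (-0.56) and PP2C61 (-0.23) in Vandana changed sign. The cause of these changes was not tested.

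Leaving out 1 array at a time gave 6 to 8 rises and 4 to 6 falls in VSR156, 0 to 2 and 0 to 12 in CSR11, 4 to 7 and 0 to 1 in IR64 and 14 to 16 and 5 to 6 in Vandana. Clade A rises ranged over 3 to 5, 0 to 1, 2 to 3 and 6 to 6. Salt differences ranged over 5 to 16 higher and 2 to 5 lower in VSR156, and drought differences over 3 to 4 and 10 to 15. The extremes of the CSR11 falls came from its salt arrays, 0 without B and 12 without A, and those of its rises were 0 without control B and 2 without control A or salt A. Of the 91 named calls, 63 were kept in each of these fits and 28 were lost in 1 or more. The letters A and B did not pair arrays across groups (r of deviations -0.027 to 0.012 over all probe sets). With the letter as a replicate block no count moved by over 1.5 times, with 4 falls in CSR11, 15 rises in Vandana and 7 and 2 salt differences, and 6 of the 91 named calls were lost.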
